A study of Capra hircus with 20 samples.

Results

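The dystrophin-glycoprotein complex links the actin cytoskeleton of a muscle fibre, across its plasma membrane, to the extracellular matrix. The 8 members described here are DMD, UTRN, DAG1, SGCA, SGCB, SGCD, SNTB1 and CAV3. They were found by gene symbol among the 20587 symbols of the deposited mRNA table, and the FPKM values (fragments per length of transcript and per number of mapped fragments) of their 21 transcripts were summed per gene. All 8 were among the 11432 genes tested, those whose average across the 20 libraries was 1 FPKM or more. The study sequenced total RNA from cultured cells of 5 male Jianzhou Daer goats (Capra hircus) aged 7 days, to find transcripts that differ between 2 fat depots and before and after adipogenic induction. Intramuscular preadipocytes (IMPA) came from the longissimus dorsi and were taken at day 0, and intramuscular adipocytes (IMA) had spent 3 days in medium with oleic acid. Subcutaneous preadipocytes (SPA) and subcutaneous adipocytes (SA) came from subcutaneous fat and were taken at the same 2 times. Each group had 5 libraries, called here by group and replicate (IMPA1 to IMPA5), and all cells were first grown in DMEM/F12 with fetal bovine serum. No group was sampled at day 3 without oleic acid. In the changes called induction here, oleic acid and 3 more days in culture therefore cannot be told apart.

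Dystrophin and its autosomal relative utrophin bind actin filaments at one end and the membrane protein beta-dystroglycan at the other, while alpha-dystroglycan carries the sugar chains that hold laminin outside the cell. The sarcoglycans form a smaller complex beside dystroglycan, and the syntrophins and dystrobrevins dock on dystrophin and recruit signalling proteins. Mutations in genes of the complex cause muscular dystrophies. Utrophin, dystroglycan and some sarcoglycans are also made in many cells other than muscle fibres.

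The deposited values were FPKM without read counts per gene, so the number of reads behind each value is not known. The study's sequencing summary lists a higher mapped share of reads and a higher GC content for every IMPA library than for any IMA, SPA or SA library. In comparisons that use IMPA, this difference between libraries cannot be told apart from induction or depot, and its part was not tested. The study's methods call the 5 replicates of a group biological, but nothing in the labels says which of the 5 goats a library came from or that replicates were separate cultures. The p-values therefore measure the spread between these libraries, which may in part be technical. The cells labelled as intramuscular preadipocytes and adipocytes carried skeletal muscle markers at high levels. Of 22 muscle markers listed, 18 were in the table, and all 18 were at or above 1 FPKM in each of the 10 intramuscular libraries. Their summed FPKM was 3625, 3639.9, 4156, 3951 and 4138 in IMPA1 to IMPA5 and 13200.4, 13619.7, 13289, 13839.7 and 14006 in IMA1 to IMA5. In the subcutaneous cells it was 27.8, 9.37, 10.8, 9.77 and 10.1 in SPA1 to SPA5 and 11.8, 12.9, 10.5, 11.0 and 11.2 in SA1 to SA5, so SPA1 stood above the other subcutaneous libraries. The most abundant marker was MYLPF, a light chain of fast skeletal myosin, in the intramuscular groups (1061 FPKM in IMPA and 4534 FPKM in IMA on average) and TNNT3, fast skeletal troponin T, in the subcutaneous groups (6.41 and 6.93 FPKM). Among markers picked after their values were seen, the myogenic factor MYOD1 was listed at 0 in all 5 SPA libraries and muscle creatine kinase (CKM) in all 5 SA libraries. Of 12 adipocyte markers, 11 were in the table and their summed FPKM averaged 12.1, 8.08, 12.1 and 12.2 in IMPA, IMA, SPA and SA. CEBPA was the most abundant of them on the mean of all 20 libraries and CIDEC in SA, and 9 of the 11, ADIPOQ and PLIN1 among them, had a mean below 1 FPKM over the 20 libraries.

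The intramuscular cells carried all 8 members above 2 FPKM in every library, whereas in the subcutaneous cells 4 members, DMD, SGCA, SNTB1 and CAV3, stayed below 1 FPKM in every library. The summed FPKM of the 8 members averaged 125 ± 6.19 in IMPA, 157 ± 9.03 in IMA, 32.4 ± 2.05 in SPA and 36.6 ± 2.58 in SA (SD, n = 5 in each group, as for all means below). In bulk RNA such as this, fewer cells that express a gene and less RNA of it per cell cannot be told apart.

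**Figure D1:**
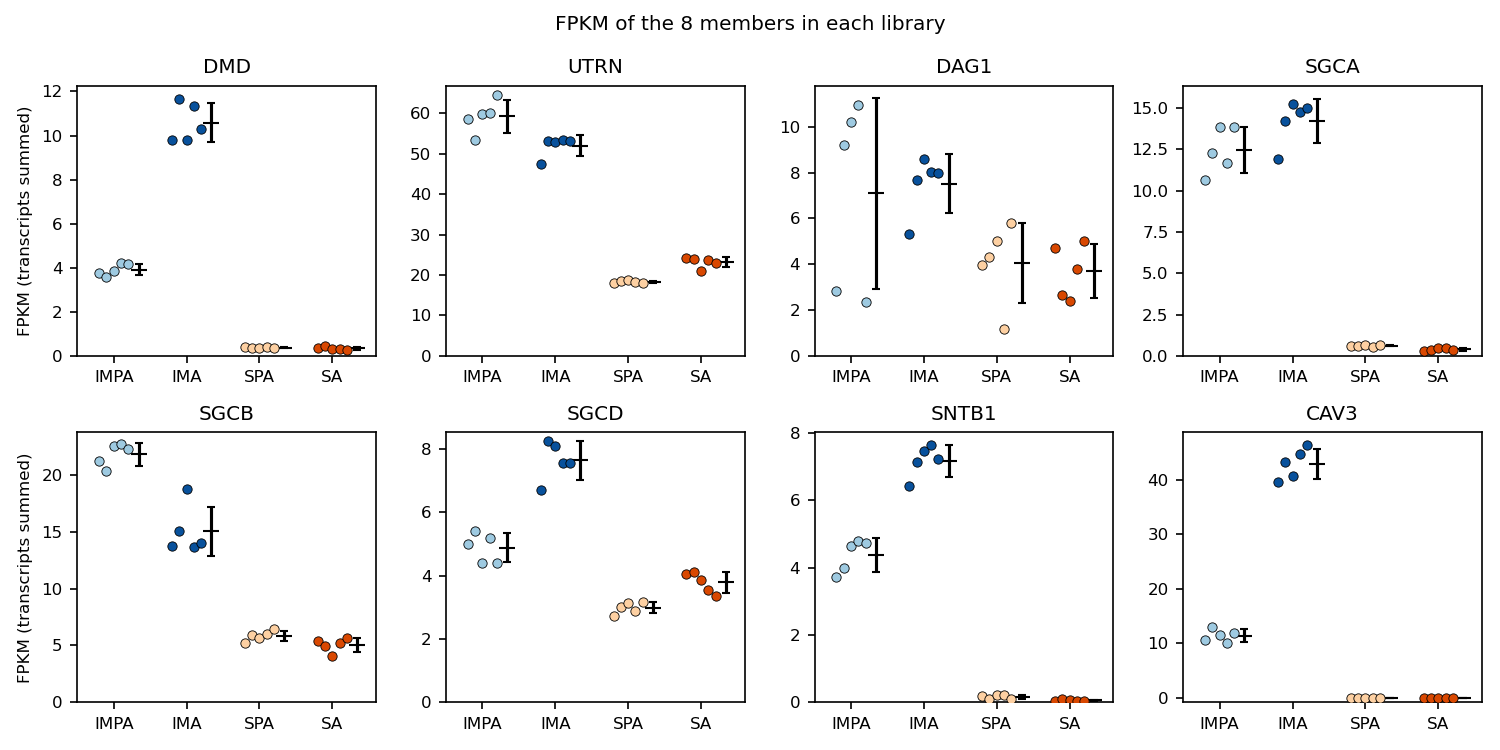
Points show FPKM (transcripts summed, vertical axis) of each of the 8 members in each of the 20 libraries, by group on the horizontal axis, and the dash with its bar is the group mean ± SD. DMD, SGCA, SNTB1 and CAV3 lie below 1 FPKM in all SPA and SA libraries, and DAG1 is the member whose libraries spread most within IMPA.

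DMD (gene 102168618) encodes dystrophin, the long rod that links actin to the complex in muscle, and is read here through 1 listed transcript. It was 3.78, 3.58, 3.84, 4.23 and 4.15 FPKM in IMPA1 to IMPA5 and 9.79, 11.7, 9.80, 11.3 and 10.3 FPKM in IMA1 to IMA5. In SPA1 to SPA5 it was 0.426, 0.380, 0.346, 0.395 and 0.355 FPKM, and in SA1 to SA5 0.359, 0.447, 0.318, 0.301 and 0.289 FPKM. Every IMA library was above every IMPA library, every intramuscular library was above every subcutaneous one, and the SPA and SA values overlapped. Group means were 3.92 ± 0.267 in IMPA, 10.6 ± 0.882 in IMA, 0.380 ± 0.0321 in SPA and 0.342 ± 0.0640 in SA.

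UTRN (gene 102183243) encodes utrophin, which takes dystrophin's place in non-muscle cells and at the neuromuscular junction, and it was the most abundant member in all 4 groups. Its FPKM was 58.6, 53.3, 59.7, 60.1 and 64.4 in IMPA1 to IMPA5 and 47.4, 53.1, 52.8, 53.4 and 53.1 in IMA1 to IMA5. It was 18.0, 18.5, 18.8, 18.2 and 18.0 in SPA1 to SPA5 and 24.3, 23.9, 21.0, 23.7 and 23.0 in SA1 to SA5. IMPA and IMA overlapped only through IMPA2, SA lay wholly above SPA, and both subcutaneous groups lay wholly below the intramuscular ones. Unlike DMD, UTRN was well above 1 FPKM in every library of both depots.

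DAG1 (gene 102178403) encodes the precursor of alpha- and beta-dystroglycan, the receptor at the core of the complex. It was 2.83, 9.19, 10.2, 10.9 and 2.36 FPKM in IMPA1 to IMPA5 and 5.33, 7.66, 8.61, 8.02 and 8.0007 FPKM in IMA1 to IMA5. In SPA1 to SPA5 it was 3.97, 4.32, 5.03, 1.19 and 5.80 FPKM, and in SA1 to SA5 4.73, 2.66, 2.41, 3.79 and 5.00 FPKM. IMPA split into 3 libraries above 9 FPKM and 2 libraries, IMPA1 and IMPA5, below 3 FPKM, and SPA4 was far below the other SPA libraries. The 4 means, 7.11 ± 4.17 in IMPA, 7.52 ± 1.27 in IMA, 4.06 ± 1.75 in SPA and 3.72 ± 1.17 in SA, therefore carried wide errors, and each group overlapped its neighbour in the order of the means.

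The 3 sarcoglycan members encode the alpha, beta and delta subunits, single-pass membrane proteins that brace dystroglycan. SGCA (gene 102184468), the subunit made mainly in striated muscle, was 10.6, 12.3, 13.8, 11.7 and 13.9 FPKM in IMPA1 to IMPA5 and 11.9, 14.2, 15.2, 14.7 and 15.0 FPKM in IMA1 to IMA5. In SPA1 to SPA5 it was 0.607, 0.614, 0.645, 0.554 and 0.631 FPKM, and in SA1 to SA5 0.310, 0.346, 0.506, 0.494 and 0.376 FPKM. IMPA and IMA overlapped, and SA lay wholly below SPA. SGCB (gene 102169269), the beta subunit, was 21.2, 20.4, 22.5, 22.7 and 22.2 FPKM in IMPA1 to IMPA5, 13.8, 15.0, 18.7, 13.6 and 14.0 FPKM in IMA1 to IMA5, 5.20, 5.88, 5.68, 5.98 and 6.41 FPKM in SPA1 to SPA5, and 5.36, 4.94, 4.10, 5.21 and 5.67 FPKM in SA1 to SA5. IMA lay wholly below IMPA, with IMA3 nearest to it, and SPA and SA overlapped. SGCD (gene 102174655), the delta subunit, was 5.01, 5.41, 4.41, 5.17 and 4.39 FPKM in IMPA1 to IMPA5, 6.71, 8.24, 8.10, 7.57 and 7.56 FPKM in IMA1 to IMA5, 2.73, 3.03, 3.13, 2.89 and 3.18 FPKM in SPA1 to SPA5, and 4.06, 4.13, 3.88, 3.54 and 3.35 FPKM in SA1 to SA5. Its 4 groups did not overlap at all, in the order SPA, SA, IMPA and IMA.

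SNTB1 (gene 102178375) encodes beta-1-syntrophin, an adaptor that binds dystrophin and dystrobrevin. It was 3.71, 3.98, 4.65, 4.80 and 4.72 FPKM in IMPA1 to IMPA5 and 6.42, 7.12, 7.45, 7.63 and 7.22 FPKM in IMA1 to IMA5. In SPA1 to SPA5 it was 0.190, 0.105, 0.215, 0.208 and 0.0891 FPKM, and in SA1 to SA5 0.0537, 0.0938, 0.0690, 0.0463 and 0.0302 FPKM. IMA lay above IMPA without overlap, and SPA and SA overlapped at values far below those of the intramuscular cells.

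CAV3 (gene 102189719) encodes caveolin-3, the muscle caveolin, which binds beta-dystroglycan and shapes caveolae of the muscle membrane. Its FPKM was 10.6, 13.1, 11.6, 10.0 and 11.9 in IMPA1 to IMPA5 and 39.6, 43.2, 40.7, 44.8 and 46.3 in IMA1 to IMA5. It was listed at 0 in SPA1, SPA3 and SPA4 and was 0.0777 in SPA2 and 0.0513 in SPA5, and it was listed at 0 in all SA libraries except SA2, where it was 0.0616. Each IMA library was therefore far above each IMPA library, and the subcutaneous libraries were at or next to 0.

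The order of the members by mean FPKM differed between groups. In IMPA, UTRN was followed by SGCB, and below them the neighbours SGCA, CAV3, DAG1, SGCD, SNTB1 and DMD overlapped each with the next. In IMA, CAV3 ranked directly after UTRN and above SGCB, and DMD lay above SGCD, DAG1 and SNTB1, which overlapped each with the next. In SPA the order was UTRN, then SGCB, DAG1 and SGCD, which overlapped each with the next, then SGCA, DMD, SNTB1 and CAV3, each below the last without overlap. In SA, SGCD ranked above DAG1, and the neighbours SGCA and DMD overlapped, as did SNTB1 and CAV3.

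At day 0 every IMPA library was above every SPA library in 7 members, all but DAG1. Mean UTRN was 3.24 times, SGCB 3.74 times, SGCD 1.63 times, DMD 10.3 times and SGCA 20.4 times its SPA level in IMPA, and SNTB1 and CAV3 were between 3 and 14 FPKM in IMPA against less than 0.3 FPKM in SPA. By limma's moderated test, two-sided and adjusted by the Benjamini-Hochberg method over all 11432 genes, 3 of the 4 members above 1 FPKM in all 20 libraries, UTRN, SGCB and SGCD, were higher in IMPA than in SPA, and DAG1 did not pass. Of all tested genes 75.1% differed in this comparison, 42.3% higher and 32.9% lower, and 63.4% had no overlap between the 5 and 5 libraries, as UTRN, SGCB and SGCD had none. Fold changes here are differences of mean log2(FPKM + 1), which understate the change of genes with low values. They were 1.64 (SE 0.0449, adjusted p = 4.36e-12) for UTRN, 1.74 (SE 0.0507, adjusted p = 8.05e-12) for SGCB and 0.56 (SE 0.0595, adjusted p = 2.55e-06) for SGCD. For DAG1 the difference was 0.58 with an SE of 0.407 and an adjusted p of 0.215, so its IMPA and SPA values were not told apart. The differences in DMD (1.83), SGCA (3.06), SNTB1 (2.21) and CAV3 (3.60) are given without a test, since these 4 passed the minimum of 1 FPKM only through the intramuscular groups and had to differ between depots. With 0.1 added to FPKM in place of 1, the difference became 3.06 for DMD, 4.12 for SNTB1 and 6.56 for CAV3.

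At day 3 every IMA library was above every SA library in all 8 members, DAG1 included. Mean DMD was 30.9 times, SGCA 35.0 times, SGCB 2.97 times, UTRN 2.24 times and both DAG1 and SGCD 2.02 times the SA level, and CAV3 stood at 42.9 ± 2.77 FPKM in IMA with 4 of 5 SA libraries listed at 0. UTRN, DAG1, SGCB and SGCD, the 4 members above 1 FPKM in all 20 libraries, passed limma's test, as 72.4% of all tested genes did (29.0% higher and 43.4% lower), and had no overlap between the 2 groups, as 58.6% of all tested genes had none. The difference in DAG1 was 0.88 (SE 0.157, adjusted p = 0.000185), that in UTRN 1.13 (SE 0.0494, adjusted p = 5.12e-11), that in SGCB 1.40 (SE 0.0896, adjusted p = 3.99e-09) and that in SGCD 0.85 (SE 0.0655, adjusted p = 3.22e-08). For DMD, SGCA, SNTB1 and CAV3, which again had to differ, it was 3.11, 3.43, 2.95 and 5.44. With 0.1 added in place of 1 the value was 5.53 for SNTB1 and 8.61 for CAV3. The comparisons of IMA with SA and of IMA with IMPA share the IMA libraries, and those of IMPA with SPA and of IMA with IMPA share the IMPA libraries.

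Over the 3 days of induction CAV3, DMD, SNTB1 and SGCD rose in the intramuscular cells while UTRN and SGCB declined. CAV3 rose 3.75 times on mean FPKM, DMD 2.70 times, SNTB1 1.64 times and SGCD 1.57 times. SGCB fell to 0.690 of its IMPA mean and UTRN to 0.878 of it, and 6 of the 8 members passed limma's test, 4 higher and 2 lower, in a comparison where 60.1% of all tested genes passed (19.9% higher and 40.2% lower). The 5 members CAV3, DMD, SNTB1, SGCD and SGCB had no overlap between IMA and IMPA, as 43.5% of all tested genes had none. On the log2 scale the changes were 1.82 (SE 0.0668, adjusted p = 1.06e-09) for CAV3, 1.23 (SE 0.0603, adjusted p = 1.36e-08) for DMD, 0.61 (SE 0.0684, adjusted p = 1.53e-05) for SNTB1 and 0.56 (SE 0.0664, adjusted p = 2.39e-05) for SGCD. SGCB changed by -0.52 (SE 0.0762, adjusted p = 0.00012) and UTRN by -0.18 (SE 0.0514, adjusted p = 0.00854), beside a median of -0.09 over all tested genes. SGCA, with a difference of 0.18 (adjusted p = 0.0724), and DAG1, with 0.26 (SE 0.343, adjusted p = 0.539), did not pass. The UTRN call was lost with upper-quartile scaling (-0.10, adjusted p = 0.104) and with its most abundant transcript alone (-0.14, adjusted p = 0.124). SGCA passed with upper-quartile scaling (0.26, adjusted p = 0.014), with quantile normalization (0.26, adjusted p = 0.013) and with all 4 groups in 1 fit (0.18, adjusted p = 0.0316). It also passed with the replicate number as a block (0.18, adjusted p = 0.00886), and without IMPA3 (adjusted p = 0.0451), IMPA5 (adjusted p = 0.0381) or IMA1 (adjusted p = 0.0154).

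In the subcutaneous cells UTRN and SGCD rose and SGCA and SNTB1 fell over the same 3 days. UTRN and SGCD each rose 1.27 times on mean FPKM, with SA wholly above SPA, and SGCA fell to 0.666 of its SPA mean, from 0.610 ± 0.0346 to 0.406 ± 0.0890 FPKM. Of the 8 members 4 passed limma's test, 2 higher and 2 lower, where 52.1% of all tested genes passed (26.1% higher and 26.0% lower). The groups did not overlap for UTRN, SGCD and SGCA, as for 38.8% of all tested genes. The changes were 0.33 (SE 0.0408, adjusted p = 3.11e-05) for UTRN, 0.26 (SE 0.0581, adjusted p = 0.00252) for SGCD, -0.20 (SE 0.0452, adjusted p = 0.00311) for SGCA and -0.13 (SE 0.0391, adjusted p = 0.0135) for SNTB1. SGCA and SNTB1 were below 1 FPKM in both groups, and with 0.1 added in place of 1 their changes were -0.50 and -0.70. The SNTB1 call was lost with all 4 groups in 1 fit (-0.13, adjusted p = 0.072) and without SPA1 and SA5 together (-0.11, adjusted p = 0.0532). The differences in DMD (-0.04, adjusted p = 0.398), DAG1 (-0.04, adjusted p = 0.912), SGCB (-0.18, adjusted p = 0.064) and CAV3 (-0.02, adjusted p = 0.672) did not pass. SGCB passed with quantile normalization (-0.17, adjusted p = 0.042), with libraries scaled to the same mRNA sum (-0.24, adjusted p = 0.0322), without SPA1 and SA5 together (-0.25, adjusted p = 0.0209), and without SPA1 (adjusted p = 0.0386) or SA5 alone (adjusted p = 0.0347).

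Whether the change with induction differed between depots was tested as an interaction, with all 20 libraries in the fit. Of the 4 members above 1 FPKM in all 20 libraries 3 passed limma's test, 1 with a positive and 2 with a negative difference (the signed change in the intramuscular cells minus that in the subcutaneous cells), where 55.3% of all tested genes passed (20.7% positive and 34.6% negative). The difference was 0.29 for SGCD (adjusted p = 0.00779), -0.51 for UTRN (adjusted p = 1.45e-06), which fell in the intramuscular and rose in the subcutaneous cells, and -0.34 for SGCB (adjusted p = 0.0121). DAG1, at 0.30 (adjusted p = 0.613), did not pass. For CAV3 it was 1.84, for DMD 1.28, for SNTB1 0.74 and for SGCA 0.38, given without a test, since these members were below 1 FPKM in all SPA and SA libraries, where log2(FPKM + 1) leaves little room for a change. With 0.1 added in place of 1 the value was 0.70 for SGCA and 1.41 for SNTB1. The muscle markers moved beside these members. From IMPA to IMA 16 of the 18 rose and 1 fell, where 19.9% of all tested genes rose and 40.2% fell. From SPA to SA 1 rose and 2 fell, where 26.1% of all tested genes rose and 26.0% fell. All 18 were higher in IMPA than in SPA and in IMA than in SA, where 42.3% and 29.0% of all tested genes were higher. Only 3 of the 18 averaged 1 FPKM or more in SPA and 2 in SA, and the others passed the minimum only through the intramuscular groups and had to differ between depots. Their part in the changes of the members was not tested.

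**Figure D2:**
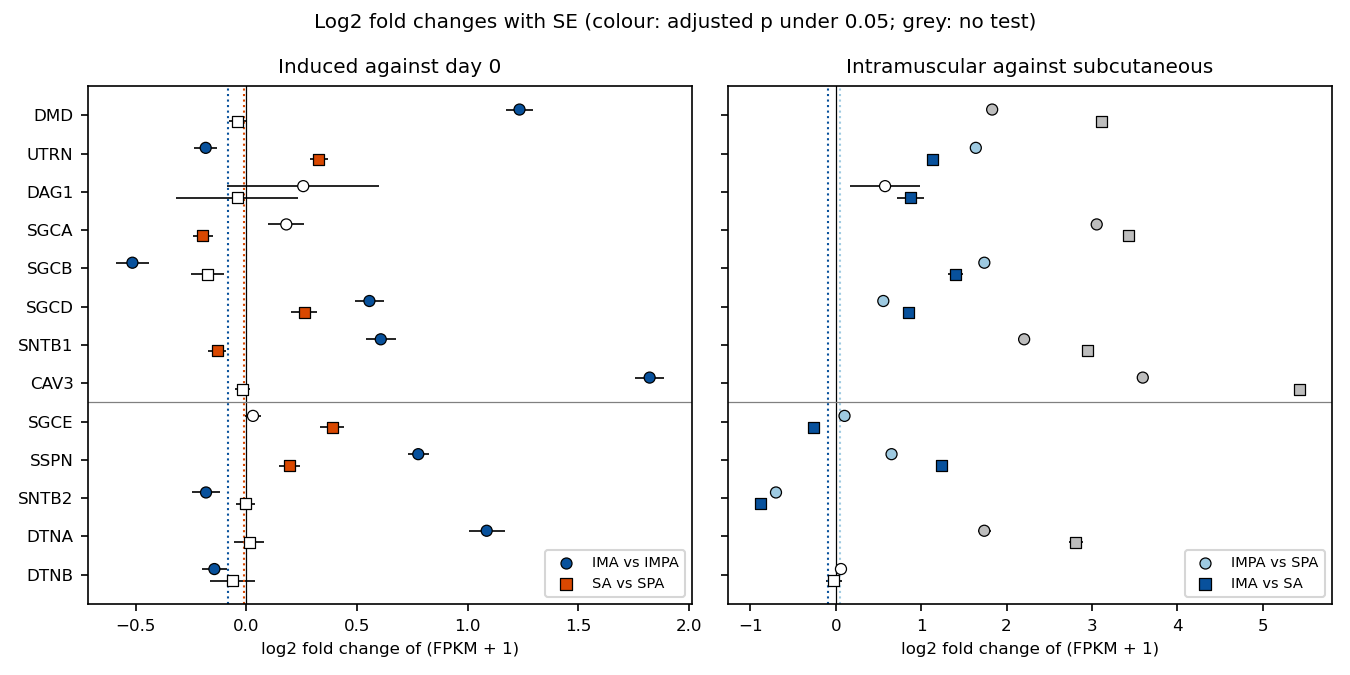
Points are differences of mean log2(FPKM + 1) (horizontal axis) with bars of 1 SE for the 8 members (above the grey line) and 5 other genes of the complex, filled in colour where the adjusted p is under 0.05 and in grey where a depot difference has no test because the gene was below 1 FPKM in all SPA and SA libraries, and dotted lines are the medians of all tested genes. The left panel shows the change with induction in each depot and the right panel the difference between depots at each time, with CAV3 and DMD farthest to the right on the left panel.

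Dystrophin and utrophin compete for the same partners, and caveolin-1 is the caveolin of most other cells, so both pairs were followed as ratios within a library. DMD was 6.62% ± 0.261 of UTRN by FPKM in IMPA, 20.4% ± 1.39 in IMA, 2.08% ± 0.198 in SPA and 1.47% ± 0.248 in SA. The log2 ratio of DMD to UTRN, each with 1 added, averaged -3.61 ± 0.05 in IMPA, -2.20 ± 0.09 in IMA, -3.81 ± 0.05 in SPA and -4.17 ± 0.08 in SA. With 1 added its 4 groups did not overlap, and the ratio rose by 1.42 with induction in the intramuscular cells and changed by -0.37 in the subcutaneous cells. In the subcutaneous cells DMD was below 1 FPKM in every library and its own change did not pass, while UTRN rose. By plain percent SPA and SA overlapped, with 1.84% in SPA3 and 1.86% in SA2. Between depots the log2 ratio differed by 0.19 at day 0 and 1.98 at day 3. The day 0 difference depended on the scale: it was 1.38 with 0.1 added in place of 1 and -0.15 after quantile normalization, while that at day 3 was 3.44 with 0.1 added.

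CAV3 was 11.6% ± 1.37 of CAV1 in IMPA and 46.4% ± 4.65 in IMA, and at most 0.178% in any subcutaneous library. The log2 ratio of CAV3 to CAV1 averaged -3.01 ± 0.15, -1.10 ± 0.15, -5.49 ± 0.08 and -5.18 ± 0.07 in IMPA, IMA, SPA and SA, and it rose by 1.92 with induction in the intramuscular cells. Between depots it was higher by 2.47 at day 0 and by 4.08 at day 3, and by 5.42 and 7.23 with 0.1 added in place of 1. From SPA to SA it differed by 0.31, where CAV3 itself was at or next to 0 and CAV1 fell, and that call was lost with 0.1 added (0.19, adjusted p = 0.429 by the exact test) and with the most abundant transcript of each gene (0.18, adjusted p = 0.103 by the exact test). Each of the 4 ratio comparisons within a depot gave p = 0.00794 by a two-sided exact permutation test, the smallest value that 5 against 5 libraries allow, and the same value after adjustment. The ratios between depots are given without a test, since DMD and CAV3 had to differ there.

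Among related genes of the complex, the share held by one gene was computed from FPKM, which is per length. These sets were chosen after their values were seen and are described without a test. DMD held 6.21% ± 0.229 of the sum of DMD and UTRN in IMPA and 16.9% ± 0.961 in IMA. SGCA held 23.8% ± 2.02 of the sum of SGCA and its close relative SGCE in IMPA, 25.9% ± 1.80 in IMA, 1.62% ± 0.0744 in SPA and 0.822% ± 0.142 in SA. CAV3 held 7.70% ± 0.876 of the 3 caveolins in IMPA and 23.9% ± 1.88 in IMA. In each of these sets UTRN, SGCE or CAV1 was the most abundant gene in every group, and the SGCA shares of IMPA and IMA overlapped.

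**Figure D3:**
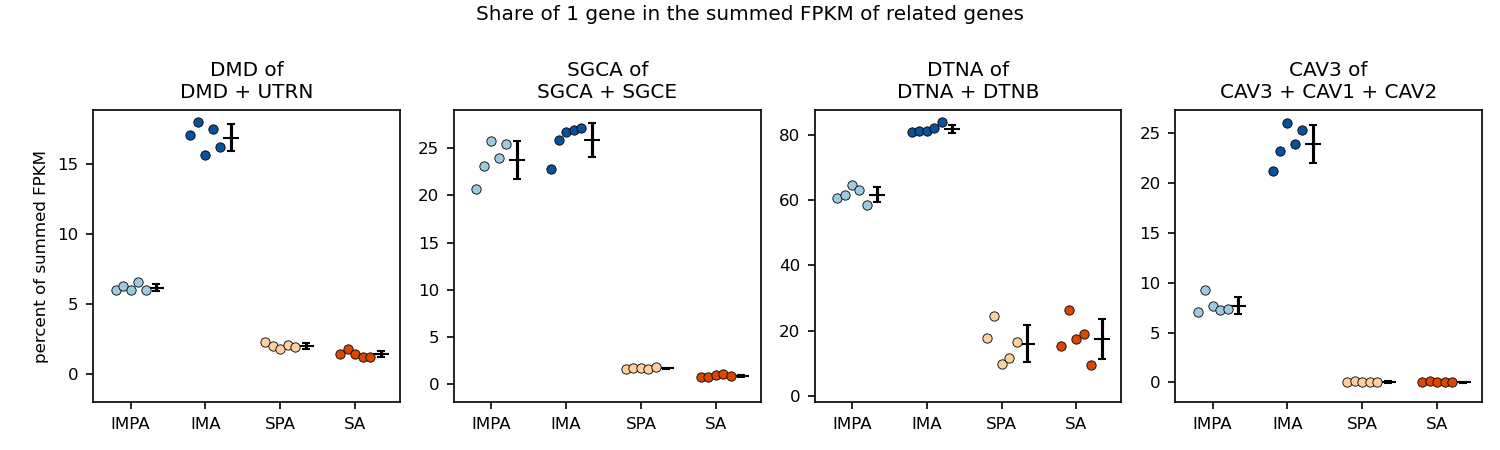
Points show, for each library, the percent of the summed FPKM of related genes (vertical axis) that DMD, SGCA, DTNA or CAV3 holds, by group on the horizontal axis, and the dash with its bar is the group mean ± SD. The shares of DMD, DTNA and CAV3 are higher in all IMA than in all IMPA libraries, and those of SGCA overlap.

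Behind the gene sums, DMD, SGCB, SNTB1 and CAV3 had 1 listed transcript each, 1 of 2 carried almost all of SGCA in the intramuscular groups, and 1 of 4 almost all of SGCD. UTRN had 8 listed transcripts, of which XM_013966586.2 held 69.0%, 71.5%, 75.1% and 76.3% of the sum in IMPA, IMA, SPA and SA. A second UTRN transcript, XM_018053300.1, averaged 12.5 FPKM in IMPA and 7.19 FPKM in IMA and fell by 0.78 on the log2 scale (adjusted p = 0.00999 by limma over 16706 transcripts), without overlap. XM_018053302.1 averaged 1.37 FPKM in SPA, with SPA2 at 0, and was listed at 0 in all 5 SA libraries. From SPA to SA it changed by -1.14 (adjusted p = 0.0129 by limma), while XM_013966586.2 changed by 0.34 (adjusted p = 0.0438 by limma). Another, XM_018053304.1, averaged 2.65 and 2.28 FPKM in the intramuscular groups and 0.00376 and 0.00592 FPKM in SPA and SA. DAG1 had 3 listed transcripts. XM_018066668.1 held 53.2%, 60.4%, 70.5% and 69.8% of the sum in the 4 groups, and it was 1.16 and 1.05 FPKM in IMPA1 and IMPA5 against 5.48, 6.72 and 6.05 FPKM in IMPA2, IMPA3 and IMPA4. XM_018066667.1 was 1.00 and 0.846 FPKM in IMPA1 and IMPA5 and 3.11, 2.69 and 3.38 FPKM in IMPA2, IMPA3 and IMPA4, so both transcripts were low in the same 2 libraries. In SPA4, which had the lowest DAG1 sum, XM_018066668.1 was 0.379 FPKM, while SPA1 and SPA5 held nearly all of their DAG1 in it. Transcripts of 1 gene share most of their sequence, and how the estimate divided reads among them is uncertain.

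**Figure D4:**
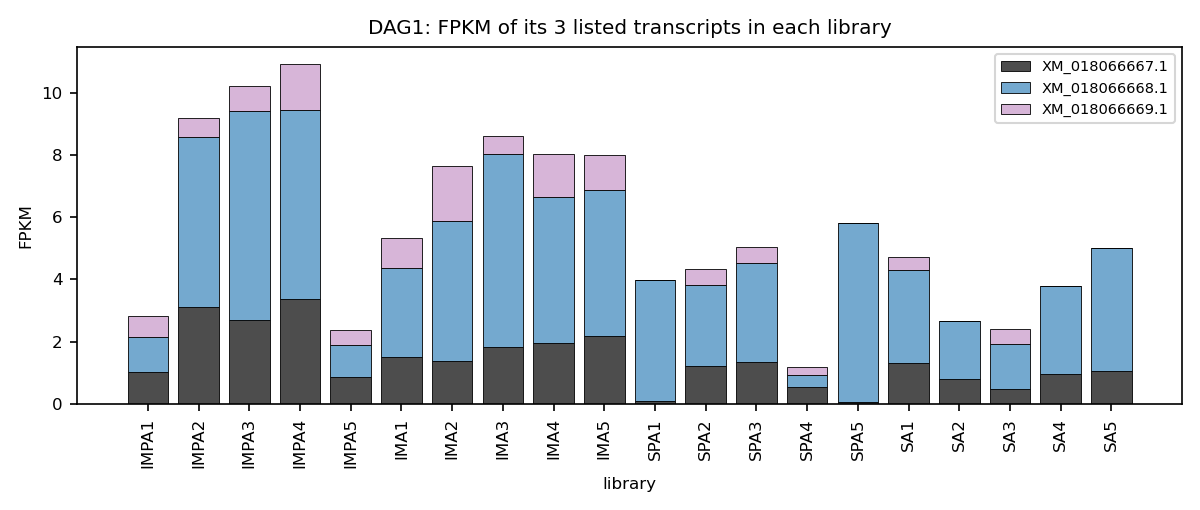
Stacked bars give the FPKM (vertical axis) of the 3 listed DAG1 transcripts in each of the 20 libraries (horizontal axis). The bars of IMPA1, IMPA5 and SPA4 are lower than those of the other libraries of their groups, and XM_018066668.1 is the largest segment in all libraries except SPA4.

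The complex has further members, and 11 were listed, of which 7 were tested. From IMPA to IMA 4 of them rose and 2 fell, with a median change of 0.25, and from SPA to SA 2 rose and none fell, with a median of 0.01. In IMPA 4 were higher and 1 lower than in SPA (median 0.10), and in IMA 3 were higher and 2 lower than in SA (median 0.14). Of all tested genes, 19.9% rose and 40.2% fell from IMPA to IMA, and 26.1% rose and 26.0% fell from SPA to SA. In IMPA 42.3% were higher and 32.9% lower than in SPA, and in IMA 29.0% were higher and 43.4% lower than in SA. These shares stand beside the counts of every list below. Of the 7, 2 passed the minimum only through the intramuscular groups and had to differ between depots. SGCE, the epsilon subunit found in many tissues, averaged 39.8, 40.6, 37.0 and 48.8 FPKM in IMPA, IMA, SPA and SA, and it rose in the subcutaneous cells (0.39, adjusted p = 0.000101). SSPN encodes sarcospan, which spans the membrane beside the sarcoglycans, and it rose from 15.2 to 26.8 FPKM in the intramuscular cells (0.78, adjusted p = 1.11e-07) and from 9.31 to 10.8 FPKM in the subcutaneous cells (0.20, adjusted p = 0.00416).

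DTNA, which encodes alpha-dystrobrevin, averaged 3.70 FPKM in IMPA, 8.99 FPKM in IMA and about 0.4 FPKM in both subcutaneous groups. It rose by 1.09 in the intramuscular cells (adjusted p = 5.81e-07), and its share of the sum of DTNA and DTNB was 61.6% ± 2.29 in IMPA, 81.9% ± 1.22 in IMA, 16.1% ± 5.70 in SPA and 17.5% ± 6.08 in SA. DTNB averaged between 1.98 and 2.30 FPKM in the 4 groups. SNTB2, beta-2-syntrophin, ran the other way between depots, at 17.4, 15.2, 28.9 and 28.8 FPKM in IMPA, IMA, SPA and SA (IMPA against SPA -0.70, adjusted p = 4.2e-08, and IMA against SA -0.88, adjusted p = 7.73e-09). Of SNTB2 and DTNB, each of which fell slightly from IMPA to IMA (-0.18 and -0.14), the calls were lost with upper-quartile scaling and with quantile normalization, and that of DTNB under 4 further alternatives. With the 10 libraries left out in turn, the DTNB call was lost 5 times and the SNTB2 call 3 times. SGCZ, SNTG1, SNTG2 and NOS1 were below 1 FPKM in every group, and NOS1, the nitric oxide synthase that syntrophin anchors in muscle, averaged 0.128 FPKM in IMA.

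**Figure D5:**
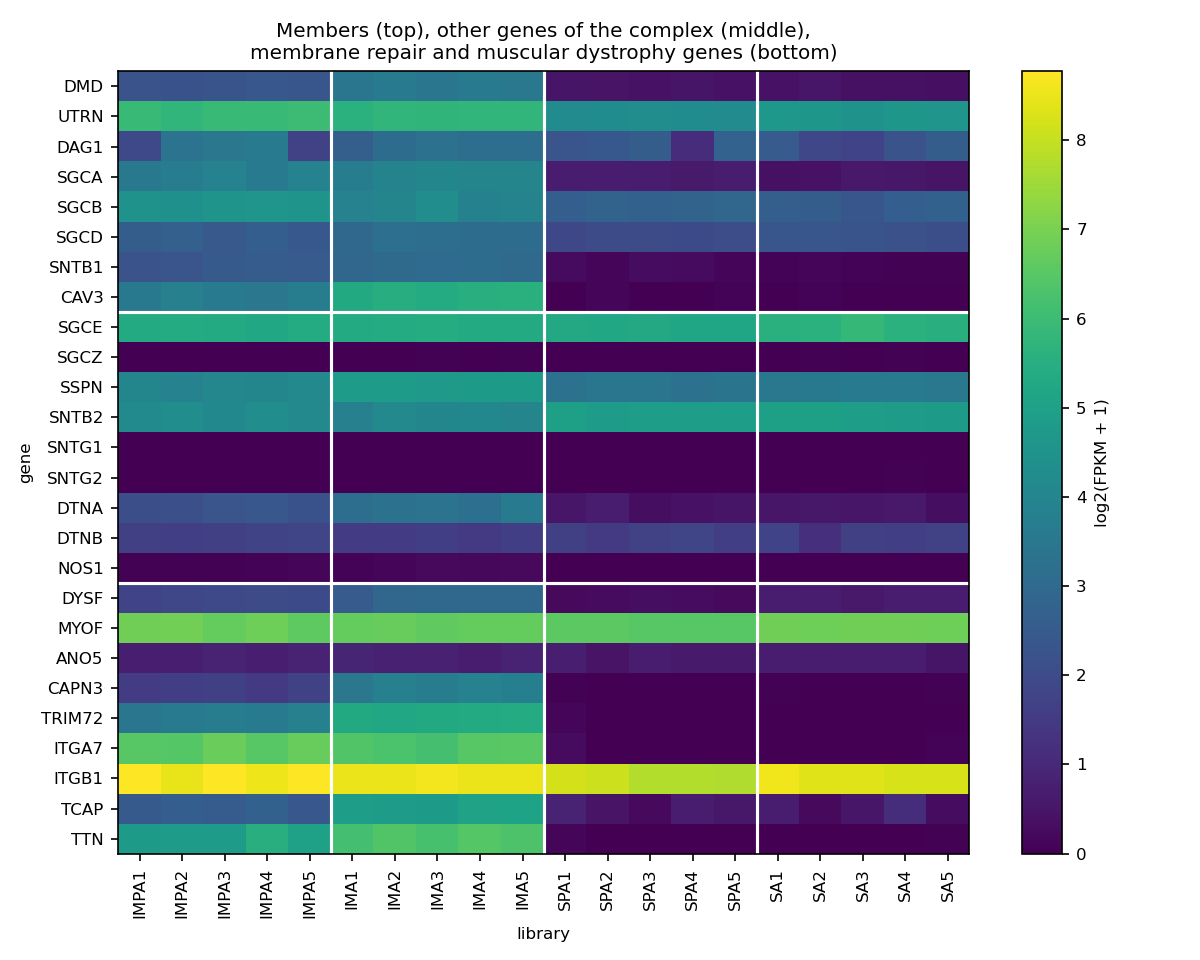
Colour gives log2(FPKM + 1) for the members (top block), other genes of the complex (middle block) and genes of membrane repair and muscular dystrophy (bottom block), with genes in rows and the 20 libraries in columns. DMD, SGCA, SNTB1, CAV3, CAPN3, TRIM72, ITGA7 and TTN are near the bottom of the scale in all SPA and SA libraries, and UTRN, SGCE, MYOF and ITGB1 are well above it in all 20.

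Alpha-dystroglycan holds laminin only after enzymes of the endoplasmic reticulum and Golgi have built its sugar chains, and 19 genes of that route were in the table and 18 were tested. From IMPA to IMA 4 rose and 7 fell (median -0.09), from SPA to SA 6 rose and 2 fell (median 0.06), in IMPA 8 were higher and 3 lower than in SPA (median 0.09), and in IMA 4 were higher and 6 lower than in SA (median -0.12). DPM3, a subunit of the enzyme that makes the mannose donor, was the most abundant at a mean of 84.1 FPKM. POMT1, which adds the first mannose, fell from 4.41 to 2.90 FPKM from IMPA to IMA (-0.47, adjusted p = 3.97e-05), a call lost with its most abundant transcript alone (adjusted p = 0.0952). DOLK, which makes the lipid carrier of mannose, fell from 6.11 to 4.60 FPKM from SPA to SA (-0.38, adjusted p = 0.0454), a call lost under 6 of the alternatives and with 7 of the 10 libraries left out in turn.

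Of 11 listed ligands of dystroglycan in the matrix 7 were tested. From IMPA to IMA 3 rose and 2 fell (median 0.11), from SPA to SA 2 rose and 4 fell (median -0.16), in IMPA 3 were higher and 4 lower than in SPA (median -0.41), and in IMA 2 were higher and 2 lower than in SA (median 0.08). LAMA2, the laminin alpha chain of muscle basement membrane, averaged 4.18, 5.97, 1.83 and 2.45 FPKM in IMPA, IMA, SPA and SA and showed the largest depot differences of the list (0.87 at day 0, adjusted p = 7.06e-09, and 1.01 at day 3, adjusted p = 5.83e-09). Perlecan (HSPG2) fell from 10.7 to 4.46 FPKM with induction in the intramuscular cells (-1.08, adjusted p = 2.5e-05). LAMB1, a laminin beta chain, was the most abundant at a mean of 196 FPKM, and biglycan (BGN) fell from SPA to SA (-0.36, adjusted p = 0.029), a call lost without a minimum level (adjusted p = 0.0873), with its most abundant transcript alone (adjusted p = 0.0624) and with 5 of the 10 libraries left out in turn.

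On the cytoplasmic side, 13 actin, filament and linker genes were listed and 11 were tested. From IMPA to IMA 4 rose and 3 fell (median 0.01), from SPA to SA 3 rose and 4 fell (median -0.19), and 7 were higher and 2 lower in the intramuscular cells at both times (median 0.72 at day 0 and 0.62 at day 3). Cytoplasmic gamma-actin (ACTG1), the actin that dystrophin binds at the membrane, was the most abundant on the mean of all 20 libraries (919 FPKM), with DES above it in IMA. Desmin (DES), the intermediate filament of muscle, rose from 573 ± 47.4 FPKM in IMPA to 1743 ± 114 FPKM in IMA (1.61, adjusted p = 1.56e-09) and was below 1 FPKM on average in SPA and SA, so that it had to differ between depots. ANK3, an ankyrin that holds dystrophin and dystroglycan at the membrane, rose from 0.408 to 1.11 FPKM from SPA to SA (0.58, adjusted p = 1.69e-07).

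Of 9 caveola genes beside CAV3, 8 were tested. From IMPA to IMA 3 rose and 4 fell (median -0.23), from SPA to SA 2 rose and 4 fell (median -0.08), and 4 were higher and 3 lower in the intramuscular cells at both times (median 0.54 at day 0 and 0.52 at day 3). MURC, the muscle cavin, averaged 37.6, 52.6, 11.0 and 10.1 FPKM in IMPA, IMA, SPA and SA, and PACSIN3, the muscle pacsin, 30.6, 64.7, 7.90 and 7.63 FPKM. Both rose with induction in the intramuscular cells, by 0.48 (adjusted p = 3.29e-05) and 1.06 (adjusted p = 4.49e-08), as CAV3 did. CAV1 averaged 99.3, 93.1, 45.0 and 35.7 FPKM in the same order and fell in the subcutaneous cells (-0.33, adjusted p = 2.37e-05), a call lost with its most abundant transcript alone (adjusted p = 0.0737). PTRF, the cavin found in caveolae of most cells, was the most abundant, at 157, 121, 181 and 137 FPKM, and fell with induction in both depots (-0.37, adjusted p = 0.0018, and -0.40, adjusted p = 3.07e-07).

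A further list held 9 genes of membrane repair and of muscular dystrophies outside the complex, of which 8 were tested. From IMPA to IMA 5 rose and 1 fell (median 1.13), and from SPA to SA 3 rose and none fell (median 0.01). Between depots all but MYOF and ITGB1 had to differ, since they averaged below 1 FPKM in SPA and SA and passed the minimum only through the intramuscular groups. MYOF and ITGB1 were higher in IMPA than in SPA, and in IMA ITGB1 was higher and MYOF lower than in SA, the ITGB1 call at day 3 being lost under 2 of the alternatives. Dysferlin (DYSF), which patches torn muscle membrane, rose from 2.77 to 6.24 FPKM in the intramuscular cells (0.93, adjusted p = 4.31e-06) and from 0.196 to 0.585 FPKM in the subcutaneous cells (0.41, adjusted p = 8.75e-07). TRIM72, which works with dysferlin and CAV3 in repair, rose from 11.4 to 39.3 FPKM (1.71, adjusted p = 1.66e-09), the muscle protease CAPN3 from 2.06 to 12.3 FPKM (2.12, adjusted p = 8.5e-10) and the titin cap TCAP from 4.87 to 29.6 FPKM (2.38, adjusted p = 2.04e-10). ITGA7, the laminin-binding integrin of muscle that acts beside the complex, averaged 95.7 FPKM in IMPA and 82.6 FPKM in IMA and less than 0.04 FPKM in SPA and SA, and ITGB1, its partner, was between 242 and 404 FPKM in all 4 groups.

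Markers of other cell types were counted beside the members. Of 8 stromal markers 7 were tested, none was higher in the intramuscular cells, and 5 at day 0 and 6 at day 3 were lower, where 32.9% and 43.4% of all tested genes were lower. With induction none of them rose and 2 fell in the intramuscular cells, and 1 rose and 5 fell in the subcutaneous cells. Decorin (DCN), a matrix proteoglycan of fibroblasts, averaged 660 FPKM in IMPA and 535 FPKM in IMA against 5441 FPKM in SPA and 4120.3 FPKM in SA. Summed stromal markers averaged 5698 ± 1017, 6360.0 ± 271, 11325 ± 172 and 10407 ± 144 FPKM in IMPA, IMA, SPA and SA, with COL3A1 the most abundant in IMPA, IMA and SA and DCN in SPA. Smooth muscle markers, 4 of 6 tested, were all higher in the intramuscular cells at both times, and their sum averaged 905, 741, 270.3 and 310.3 FPKM, with TAGLN the most abundant. All 5 endothelial markers were below 1 FPKM in every library, and of 5 immune markers only CD68 was tested, with a mean of 1.27 FPKM. Of 5 Schwann cell markers 2 were tested, S100B and MBP, with means of 33.9 and 10.8 FPKM over the 20 libraries. Of these 2, 1 was higher and 1 lower in IMPA than in SPA, and both were higher in IMA than in SA. MBP was higher by 1.55 at day 0 and by 1.28 at day 3, and it changed by -0.91 from IMPA to IMA. SOX10, picked after its values were seen, was below 0.1 FPKM in every library. Of 6 cardiac markers 5 were in the table and 2 were tested, TNNI3 averaging 5.97, 14.1, 2.51 and 1.75 FPKM. Of 5 proliferation markers none rose and 3 fell from IMPA to IMA, and all 5 rose from SPA to SA, TOP2A from 10.9 to 57.2 FPKM. All 5 were higher in IMPA than in SPA and all 5 were lower in IMA than in SA. The part of these cell types and of cell division in the values of the members was not tested.

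For each member whose group means spanned more than 1 on the log2 scale, the 3 genes with the most similar pattern over the 20 libraries were found by the root mean square difference of centred log2(FPKM + 1). Those of DMD were LPAR3 (0.103), MYO18B (0.114) and TPM3 (0.134), and those of CAV3 were CDH17 (0.102), TRIM72 (0.107) and LMOD2 (0.107). The nearest genes to UTRN were KLHL23 (0.0919), TMEM47 (0.103) and FIGN (0.103), and the nearest 2 to SGCB were PPFIBP2 (0.139) and CNKSR3 (0.142). SGCA was nearest to RTN2 (0.118), LOC102177846 (0.121) and MEGF10 (0.133), SGCD to GPD2 (0.104), VMA21 (0.105) and SHTN1 (0.115), and SNTB1 to BIN1 (0.103), ZNF106 (0.117) and TPM2 (0.117). No member was among the nearest genes of another. DAG1 spanned 0.88 and was not compared.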

How the data were processed

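Total RNA of the 20 samples was sequenced by the authors with strand-specific libraries, and FPKM per transcript was deposited by the authors for mRNAs and lncRNAs. The submitters' processing notes name HISAT2 2.0.4 and StringTie 1.3.1. The summed FPKM of the mRNA table was between 373889 and 413880 in the 20 libraries, and the files give no read counts per gene. FPKM was summed per symbol, genes averaging 1 FPKM or more across all 20 libraries were kept, and log2(FPKM + 1) was tested with limma 3.58.1 in R 4.3.3, two-sided, with a variance trend, in fits of 10 libraries per pair of groups and of 20 for the interaction. The Benjamini-Hochberg adjustment ran over all 11432 genes, and a gene was called at an adjusted p under 0.05. Transcripts were tested likewise. Ratios were compared by a two-sided exact permutation test over libraries. Python 3.11.15, numpy 2.4.6, pandas 2.3.3, scipy 1.17.1 and matplotlib 3.10.9 were used. The scripts for limma and for the permutation test were tested on simulated data.

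Genes named are the 8 members, all tested genes of 3 lists (the rest of the complex, caveolae, and membrane repair and dystrophy), from the other lists the most abundant gene and the called gene with the largest change in each comparison, and the 3 nearest genes to each member. The members and lists were chosen with earlier results of these data known. A RefSeq gene table of assembly ARS1.2 was used for names only and held 8 of 8 members and 21 of 21 of their transcripts. Symbols not matched (MYH1, MYH2, MYH3, MYH7, MYH6, FABP4, LAMB2) and the sequences of the members were not analysed here. Alternatives were other minimum levels, 0.1 as the added value, 3 scalings, no variance trend, all 4 groups in 1 fit, replicate number as a block, the most abundant transcript, and libraries left out.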

Additional observations from a re-analysis of the deposited data

Results flagged for a closer look

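In 5 of 40 groups of 5 libraries examined (8 members and 2 ratios in 4 groups), 1 library lay apart from the other 4, and chance alone sets apart about 1 in 20 groups. UTRN was 47.4 FPKM in IMA1, below the other IMA libraries, and DAG1 was 5.33 FPKM in the same library, also below the others. SGCB was 18.7 FPKM in IMA3, above the other IMA libraries and still below every IMPA library. CAV3 was 0.0616 FPKM in SA2 and listed at 0 in the other SA libraries, so that any value above 0 would have lain apart there, and the chance rate does not apply to it. The log2 ratio of CAV3 to CAV1 was -2.75 in IMPA2, above the other IMPA libraries.

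The change with induction in the intramuscular cells minus that in the subcutaneous cells was 0.29 for SGCD, -0.34 for SGCB and -0.51 for UTRN, and these 3 differed by limma's test of the interaction. It was 1.84 for CAV3, 1.28 for DMD, 0.74 for SNTB1 and 0.38 for SGCA, which were below 1 FPKM in all SPA and SA libraries, so their values give no test of a depot difference. The cause of these differences was not tested.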

How the results depend on the processing

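Under the alternatives other than leaving out single libraries, 413 member values kept their call or stayed uncalled, 7 gained and 4 lost a call, and with single libraries left out 475 were kept and 5 gained a call. These counts include DMD, SGCA, SNTB1 and CAV3 between depots and in the interaction, where these 4 members are given without a test. Between depots these 4 had to differ, so their kept calls there were set by the minimum of 1 FPKM. All calls gained or lost were in the comparisons within a depot. None of the called member values reversed. The counts of members called, with these 4 included, and of genes called stayed within 1.5 times their values under every alternative. The log2 ratio of DMD to UTRN between IMPA and SPA reversed to -0.15 after quantile normalization, and the cause was not tested. The SPA to SA difference in the ratio of CAV3 to CAV1 was 0.19 with 0.1 added and 0.18 with the most abundant transcripts, and neither passed; the cause was not tested. The other ratio comparisons kept their direction, and so did all ratios with single libraries left out. Those within a depot also kept their call. Those between depots have no call to keep, since DMD and CAV3 had to differ there. DAG1, uncalled in 3 comparisons and in the interaction, ranged with single libraries left out from -0.01 to 0.45 between IMA and IMPA, 0.30 to 0.85 between IMPA and SPA, -0.32 to 0.09 between SA and SPA and 0.03 to 0.58 in the interaction. Among called genes the share that was higher moved from 33.1% to 48.4% (IMA against IMPA) and from 37.5% to 49.2% (interaction) with upper-quartile scaling, to 48.5% (interaction) with quantile normalization, and from 50.1% to 36.5% (SA against SPA) with equal mRNA sums. Between IMPA and SPA this share moved from 56.25% to 49.94% with upper-quartile scaling and to 46.45% with quantile normalization. For the tested genes of the other lists, 177 calls were lost, 54 gained and 1 turned (SMTN from SPA to SA, chosen after its values were seen) over the alternatives, and 5429 values were unchanged, while with single libraries left out 166 calls were lost and 55 gained. The shared replicate numbers were not taken as pairs in the main tests, since the labels do not say that equal numbers share a goat. In no pair of groups did all 5 correlations exceed 0.1, but this cut-off cannot exclude pairs. Correlations of same-numbered deviations ran from 0.04 to 0.12 between IMA and IMPA and from -0.24 to 0.12 between SA and SPA. They ran from -0.10 to 0.06 between SPA and IMPA and from -0.18 to 0.03 between SA and IMA. In that order, 4 of 5, 0 of 5, 2 of 5 and 0 of 5 libraries correlated best with their own number. With the replicate number as a block, 7 members were called between IMA and IMPA (6 without it), SGCA being gained (0.18, adjusted p = 0.00886 by limma). The other member calls that have a test were kept. A paired exact test of the ratios was not run, since 5 pairs cannot give a p below 0.0625. Leaving out SPA1 and SA5 together does not apply to IMA against IMPA, and 1 fit of 4 groups is already the interaction. With no read counts per gene in the files, values near 0 such as CAV3 in SPA and SA have no stated precision.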
